A study of Mus musculus with 6 samples.

Results

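The proteasome subunit genes were compared between mouse bone marrow derived macrophages that lack the receptor SIRPa and wild-type macrophages. They were chosen by name and type alone, as every protein-coding entry of the deposited table whose symbol is Psm, a letter from a to g and then a digit. This gave 50 of 54232 entries. One of them, Psmc3ip, matches by name only: it is named for a partner of the ATPase Psmc3 and acts in meiotic recombination, so it is given apart. The other 49 were 7 core alpha subunits, 4 non-catalytic and 3 constitutive catalytic core beta subunits, 3 immunoproteasome subunits, 2 core subunits of single tissues, 6 ATPases and 11 non-ATPases of the cap, 6 activators and inhibitors, and 7 assembly factors.

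The cells came from C57BL/6 mice of 8 weeks, and marrow was cultured for 7 days with 30% L929 cell-conditioned medium, which supplies colony-stimulating factor-1, with no treatment in either group. There were 3 libraries of genotype SIRPa KO (KO) and 3 of WT. The labels name neither the allele nor separate mice or cultures for the replicates, so a p-value here reflects how far libraries differ, and that spread could be purely technical. Between 28653015 and 67446846 reads per library were assigned to genes, the most in WT replicate 3. Sirpa stood at 1.95% of its WT level in KO. All 10 macrophage markers were present, with summed normalized counts of 911468 to 1055760 in KO and 1042620 to 1232610 in WT. Most of that sum was Lyz2, with means of 697991 in KO and 808023 in WT. Of the 10 markers, 5 were below WT and 5 above. Cd14 was the 1 without overlap between the groups, lower in KO (log2 fold change -0.32, SE 0.12, unadjusted p = 0.0254 by limma). Markers of other cells were present at far lower sums: 9 of 10 neutrophil markers (439 to 613 in KO, 377 to 758 in WT; Ly6g at 0), 6 of 8 T and NK cell markers (189 to 202 and 111 to 205; mostly Cd4, with Cd3g and Ncr1 at 0), 8 of 8 dendritic cell markers (221 to 245 and 184 to 267), 6 of 7 fibroblast markers (2.41 to 9.16 and 1.07 to 13.0; Lum at 0) and 5 of 6 B cell markers (4963 to 5827 and 6192 to 6718). The B cell sum was nearly all Ighm, at 4909, 5757 and 5315 in KO libraries and 6183, 6146 and 6657 in WT libraries, without overlap between the groups (log2 fold change -0.25, SE 0.10, unadjusted p = 0.0349). The part of other cells in the results was not tested. In bulk RNA, fewer cells of a type and less RNA per cell cannot be told apart.

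The 26S proteasome degrades proteins tagged with ubiquitin. Its barrel-shaped core has outer rings of alpha subunits, which gate the entrance, and inner rings of beta subunits, of which Psmb5, Psmb6 and Psmb7 carry the cutting sites. The cap binds and unfolds the substrate with a ring of ATPases (Psmc genes) and with non-ATPase subunits (Psmd genes). Under interferon, and constitutively in many blood cells, Psmb8, Psmb9 and Psmb10 take the places of Psmb5, Psmb6 and Psmb7 in new cores. The resulting immunoproteasome makes peptides suited to MHC class I. Interferon gamma also induces the PA28 activator, made of Psme1 and Psme2, while the transcription factor NFE2L1 raises genes of the constitutive particle when proteasome activity falls short.

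Promoter stretches are shown for genes on both sides of this switch, namely the catalytic partners Psmb5 and Psmb8, the partners Psmb6 and Psmb9, and the PA28 gene Psme1. Each holds 150 bases before and 30 bases from the RefSeq transcription start, 5′ to 3′ on the gene's strand, on GRCm38.p6. The stretches of Psmb8, Psmb9 and Psme1 lie wholly inside the gene's span in GENCODE M21, which begins farther upstream. Capitals mark matches on either strand to TGACNNNGC (the core of the antioxidant response element, which NFE2L1 can bind), CCAAT (the CCAAT box), GAAA, any 2 bases and GAAA again (the interferon-stimulated response element) or TTCNNNGAA (the gamma-activated site). The stretches are chr14:54617966-54618145 (minus strand), chr17:34198045-34198224 (plus strand), chr11:70525207-70525386 (plus strand), chr17:34187301-34187480 (minus strand) and chr14:55578344-55578523 (plus strand).
Psmb5: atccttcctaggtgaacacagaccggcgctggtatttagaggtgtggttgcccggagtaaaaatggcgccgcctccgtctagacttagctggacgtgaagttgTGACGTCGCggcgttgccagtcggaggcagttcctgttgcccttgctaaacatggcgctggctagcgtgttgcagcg
Psmb8: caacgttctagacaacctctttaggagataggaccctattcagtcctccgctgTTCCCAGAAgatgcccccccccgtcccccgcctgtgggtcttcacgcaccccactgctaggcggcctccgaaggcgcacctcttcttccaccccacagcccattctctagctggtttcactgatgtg
Psmb6: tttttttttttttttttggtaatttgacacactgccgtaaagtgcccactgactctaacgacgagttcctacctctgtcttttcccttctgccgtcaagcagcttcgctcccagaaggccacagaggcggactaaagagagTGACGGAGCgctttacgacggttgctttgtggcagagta
Psmb9: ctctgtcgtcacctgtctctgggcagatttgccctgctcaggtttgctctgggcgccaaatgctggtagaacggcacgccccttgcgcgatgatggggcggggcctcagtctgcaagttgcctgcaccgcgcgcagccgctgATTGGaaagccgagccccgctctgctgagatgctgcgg
Psme1: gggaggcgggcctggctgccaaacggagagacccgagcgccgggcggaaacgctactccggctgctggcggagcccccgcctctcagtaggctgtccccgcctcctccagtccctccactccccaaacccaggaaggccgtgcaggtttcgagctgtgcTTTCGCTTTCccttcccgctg

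Of the 50 genes, 42 had an entry in the promoter table, with 45 windows of 300 bases. The antioxidant response core was in 6 windows (13.3%, against 12.4% of all 32851 windows of that length), including that of Psmb5, 47 bases before the start, and that of Psmb6, 9 bases before it. The CCAAT box was in 15 (33.3% against 37.4%), and that of Psmb9 lay on the opposite strand. The interferon-stimulated response element was in 5 (11.1% against 3.44%), those of Psmb3, Psmd4, Psmd9, Psme1 and Psmg4. That of Psme1 lay on the opposite strand and after the start, from base 10. The gamma-activated site was in 3 (6.67% against 8.30%), those of Psmb8, Psmd2 and Psmg1. The matches are letters, not measured binding. Psmb9 and Psmb8 are neighbours on chromosome 17 of GRCm38: Psmb9 spans 34181987 to 34187764 on the minus strand and Psmb8 spans 34197721 to 34201454 on the plus strand, with the peptide transporter gene Tap1 between them.

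Proteasome genes were well expressed in both genotypes and together took between 0.383% and 0.472% of assigned reads per library. Values below are normalized counts, that is reads divided by the authors' size factor of the library. To set levels of genes side by side, they were also divided by the length of the longest principal transcript in kilobases, a scale added after seeing the data because merged exons are much longer than the main transcript for some genes. On that scale the mean of the 6 libraries was highest for Psmd8, a cap subunit, at 5775 per kilobase, followed by Psme1 at 5406 and Psmb6 at 4972. Core alpha subunits, which are present in equal numbers in a core, ran from 799 per kilobase for Psma3 to 4016 for Psma1. Cap ATPases ran from 1687 for Psmc6 to 4066 for Psmc1. Assembly factors, which leave the particle once it is built, ran from 225 for Psmg3 to 709.7 for Psmd10. The order depended on the length used. Per kilobase of merged exons Psma6 was highest at 3369, followed by Psmc1 at 3347 and Psmd8 at 2909. On that scale Psma6 rather than Psma1 was the highest alpha subunit, and Psmc2, at 887, rather than Psmc6 the lowest ATPase.

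**Figure D1:**
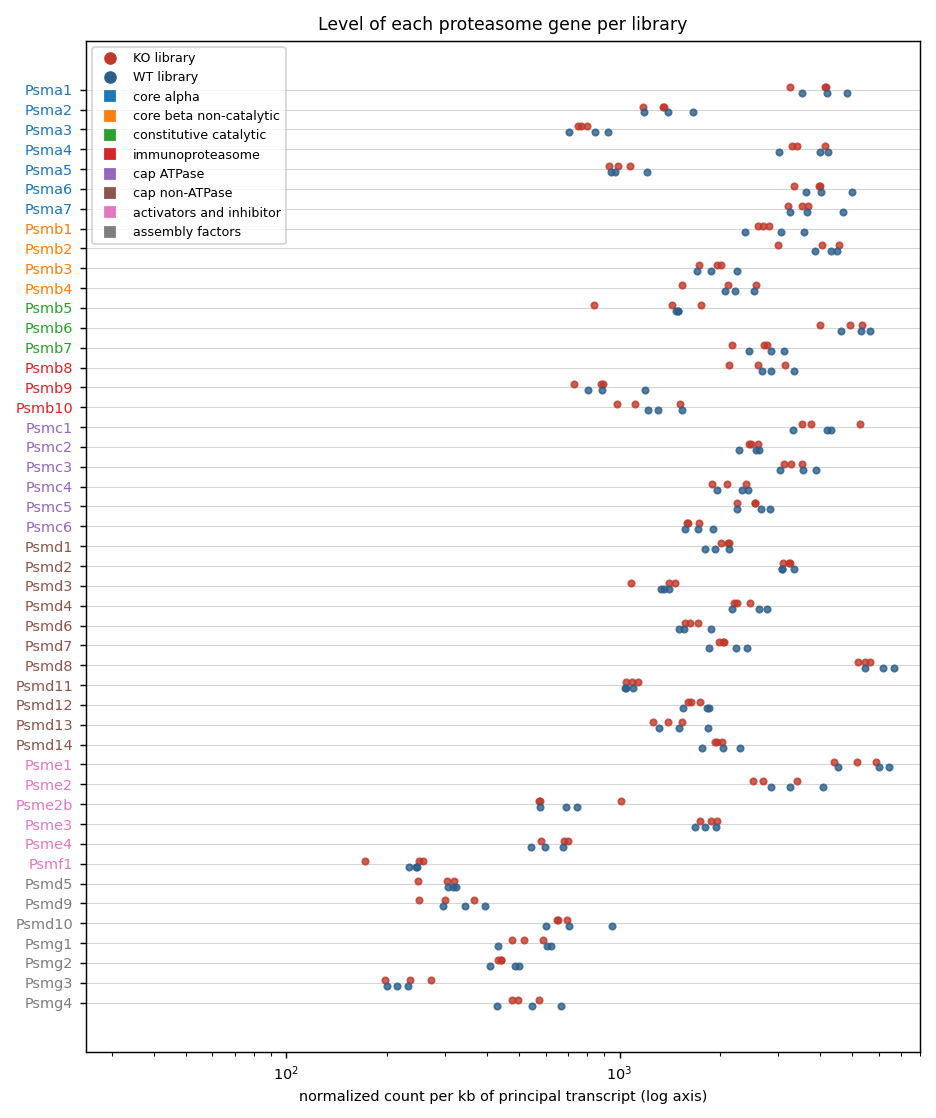
Normalized count per kilobase of principal transcript (log axis) of 47 proteasome genes, 1 point per library, KO red and WT blue; gene names are coloured by group. Libraries of both groups overlap for every gene, and Psmd8 is the highest gene and Psmg3 the lowest by mean.

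No proteasome gene passed the test between KO and WT. Of the 50 genes, 49 passed the filter on low values, 48 of them proteasome genes. Of these 48, 0 rose and 0 fell by limma's test with Benjamini-Hochberg adjustment over all 13527 genes tested, of which 0.00739% were called, Sirpa alone. At an unadjusted p under 0.05 there were 0 of 48, against 1.52% of all genes, and the smallest p was 0.165, for Psme2. On reads recovered from the values, edgeR's quasi-likelihood test and DESeq2 also called 0 of 48 (0.00751% and 0.00406% of all genes called) and had 0 at an unadjusted p under 0.05 (1.56% and 0.882% of all genes). In the authors' deposited table the smallest p of these genes was 0.146. With limma array weights, whose estimation stopped without converging, 9 of 48 were called (18.8%, against 25.9% of all genes): Psma4, Psmb1, Psmb9, Psmb10, Psmd4, Psmd8, Psme1 and Psme2 lower in KO (13.4% of all genes) and Psme4 higher (12.5%). Under those weights 18 of 48 had an unadjusted p under 0.05, against 40.1% of all genes. KO and WT libraries overlapped for all 48, while 4.66% of all genes tested had groups without overlap.

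The intervals bound the differences that these libraries leave possible. For 46 of 48 genes the 95% interval did not reach past a 1.5-fold change either way, against 69.1% of all genes tested and 88.5% of the 10339 genes whose normalized counts averaged 100 or more, and for all 48 it stayed inside a 2-fold change. Psmb5 was an exception to the narrower bound, with a lower end of -0.71 on the log2(value + 1) scale, and so was the low-level Psma8, with an upper end of 0.73. The residual SD had a median of 0.19 (log2) over the 48 genes and of 0.16 over those 10339 genes.

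**Figure D2:**
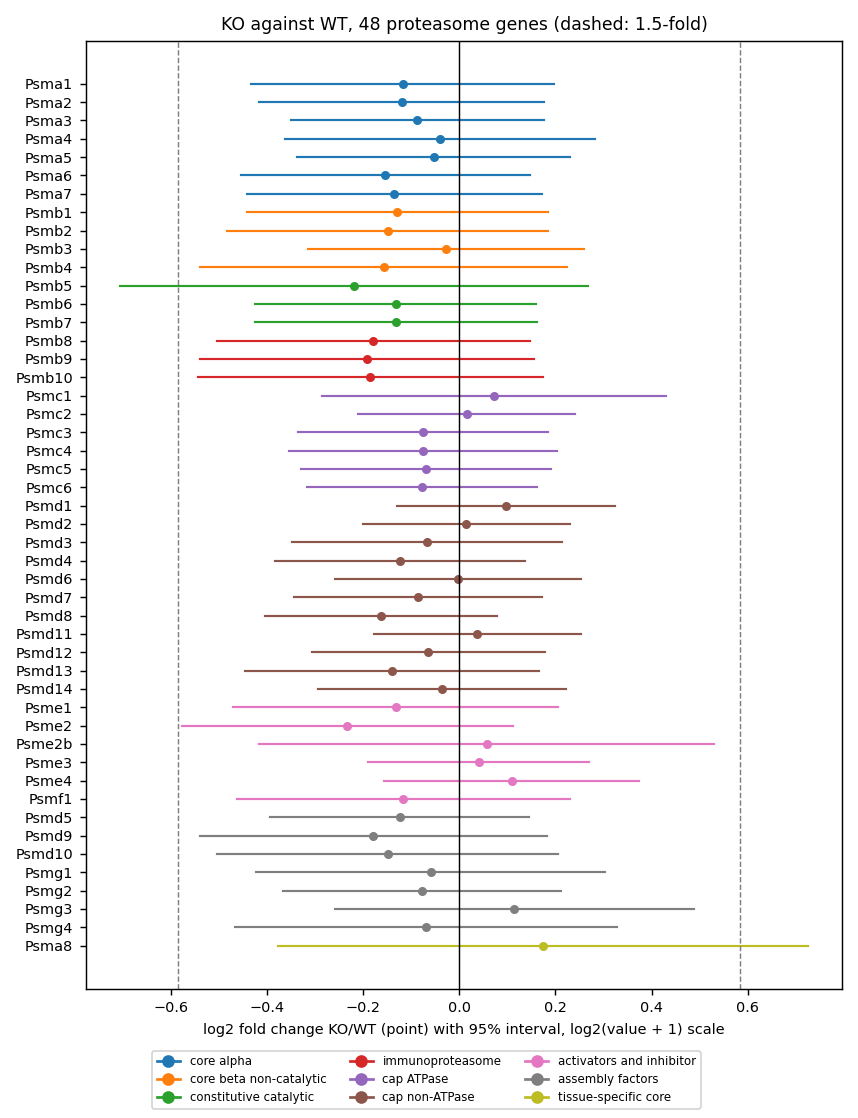
Log2 fold change of KO against WT (points) with its 95% interval by limma (lines), on the log2(value + 1) scale, for the 48 proteasome genes that passed the filter, coloured by group; dashed lines mark 1.5-fold. All 48 intervals include 0, and those of Psmb5 and Psma8 cross a dashed line.

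Most fold changes were slightly below 0. The KO mean was below WT for 38 of 48 genes (79.2%), against 51.8% of all genes tested, with a median log2 fold change of -0.08 against -0.01 over all genes. All 17 core genes other than Psma8 lay below WT, with 12 of 17 cap genes, 6 of 7 assembly factors and 3 of 6 activators and inhibitors. The count depended on the libraries used, and among single omissions most on WT replicates 3 and 2. It was 26 of 48 without WT replicate 3 (median -0.0044) and 34 without KO replicate 3 (median -0.04). With both left out, an alternative added after seeing the data, 14 of 48 were below WT and the median was 0.04. Without WT replicate 2 it was 44 of 48 (median -0.19). The other single omissions gave 35 without KO replicate 2 (median -0.12), 36 without WT replicate 1 (-0.07) and 38 without KO replicate 1 (-0.10).

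Libraries of 1 genotype differed among themselves. WT replicate 3 was the highest of the 6 for 33 of the 48 genes (68.8%), against 26.2% of all genes tested. KO replicate 3 was the lowest for 21 (43.8% against 27.2%) and WT replicate 2 for 20 (41.7% against 16.9%). The median deviation of the 48 genes from their own means was -0.02, 0.01 and -0.08 (log2) in KO replicates 1 to 3, and 0.07, -0.14 and 0.20 in WT replicates 1 to 3. By these medians the WT libraries were spread more widely than the KO ones for the set as a whole, but not for the catalytic subunits. Medians of the constitutive catalytic genes ran from -0.30 to 0.11 in KO and from -0.10 to 0.20 in WT. Those of the immunoproteasome genes ran from -0.36 to 0.19 in KO and from -0.06 to 0.29 in WT. Deviations also followed transcript length and GC content across genes in several libraries. For length, Spearman's rho was -0.52 in WT replicate 3 over 11543 genes (-0.37 over the 48), 0.36 in WT replicate 2 (0.30) and 0.28 in KO replicate 1 (0.39). In KO replicate 3 it was 0.34 over all genes but 0.09 over the 48, and in WT replicate 1 -0.365 but -0.05. In KO replicate 2 it was -0.15 for both. For GC content it was -0.38 in KO replicate 3 over 13514 genes (-0.35 over the 48), 0.42 in KO replicate 2 (0.44) and -0.02 in KO replicate 1 (-0.36). In WT replicates 1 to 3 it was 0.11, 0.15 and -0.05 over all genes, and 0.19, 0.10 and 0.21 over the 48. These describe single libraries, genes are not independent replicates, and the part of length or GC in the differences was not tested.

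**Figure D3:**
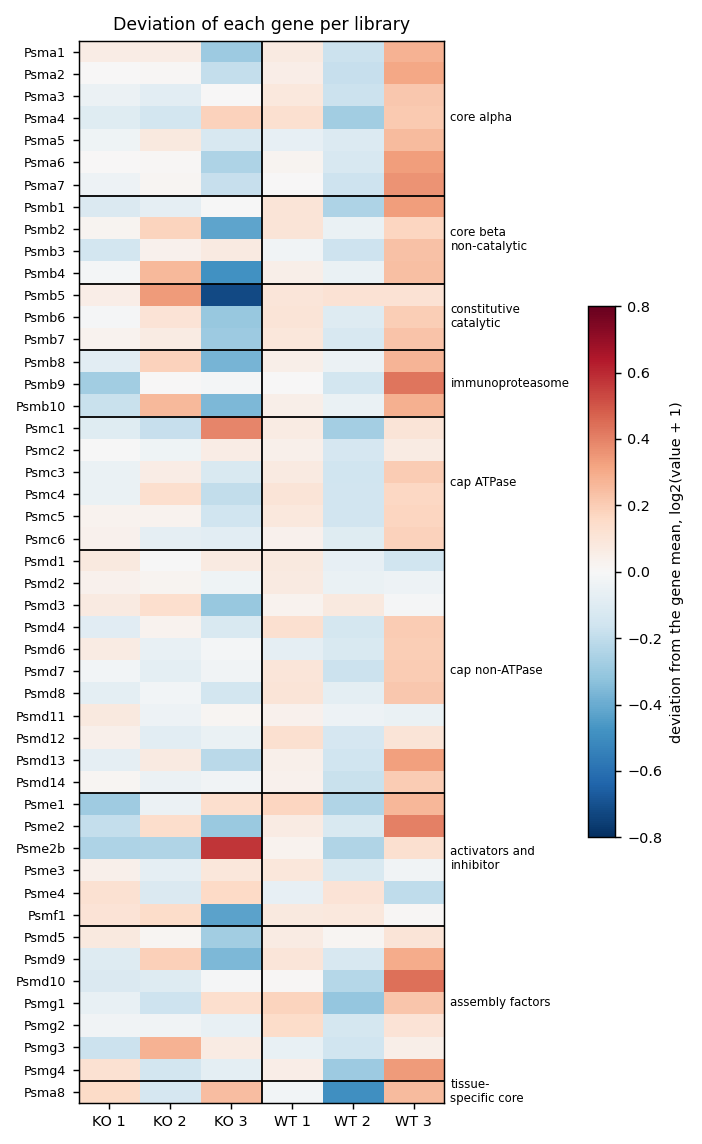
Deviation of each of 48 proteasome genes (rows, by group) from its mean over the 6 libraries (columns) on the log2(value + 1) scale, red above and blue below. WT replicate 3 is the highest library for 33 rows, and KO replicate 3 or WT replicate 2 the lowest for 21 and 20.

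Core alpha subunits, the gate of the core, all lay slightly below WT, and 0 of 7 passed (median log2 fold change -0.12, range -0.15 to -0.04). Psma6 had normalized counts of 4134, 4160.0 and 3478 in KO libraries and 4186, 3778 and 5206 in WT libraries (log2 fold change -0.15, SE 0.14, unadjusted p = 0.283). Its highest library was WT replicate 3 and its lowest KO replicate 3, with the other 4 between them. Psma1, the most abundant alpha subunit by normalized count, was at 4988, 4976 and 3903 in KO libraries and 5031, 4240.1 and 5799 in WT libraries and had the same highest and lowest libraries. Psma4 was at 3969.7, 3848 and 4831 in KO libraries and 4649, 3505 and 4922 in WT libraries, and here KO replicate 3 was nearly as high as WT replicate 3. Over the 7 genes the median was 0.004 without WT replicate 3 and 0.07 with replicate 3 of both groups left out.

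Non-catalytic beta subunits, which complete the inner rings, also lay below WT, and 0 of 4 passed (median -0.14). Psmb1, the most abundant of them, was at 4585, 4733 and 4952 in KO libraries and 5352, 4184 and 6275 in WT libraries (log2 fold change -0.13, SE 0.14), so that WT libraries were both the lowest and the highest. Psmb4 was at 2511, 3046 and 1818 in KO libraries and 2625, 2447 and 3002 in WT libraries (log2 fold change -0.16, SE 0.17). Psmb2 was at 3493, 3903 and 2565 in KO libraries and 3702, 3322 and 3874 in WT libraries (log2 fold change -0.15, SE 0.15). For Psmb4 and Psmb2 alike, KO replicate 2 was the highest library and KO replicate 3 the lowest, so the KO values enclosed the WT ones. Psmb3 was at 1458 ± 117 in KO and 1492 ± 213 in WT (SD, n = 3).

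Of the constitutive catalytic subunits 0 of 3 passed (median -0.13). Psmb5, which cuts after hydrophobic residues, was at 1294, 1574 and 755 in KO libraries and 1332, 1347 and 1349.6 in WT libraries. The WT libraries were nearly equal, while KO replicate 3 was far below the other 5. The log2 fold change was -0.22 (SE 0.22, unadjusted p = 0.343), and 0.09 without KO replicate 3. Psmb6, the caspase-like subunit, was at 3925, 4261 and 3193 in KO libraries and 4237, 3676 and 4516 in WT libraries (log2 fold change -0.13, SE 0.13). Psmb7, the trypsin-like subunit, was at 3151, 3225 and 2527 in KO libraries and 3294, 2831 and 3616 in WT libraries (log2 fold change -0.13, SE 0.13). KO replicate 3 was the lowest library for both and WT replicate 3 the highest, with KO replicates 1 and 2 inside the WT range.

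Immunoproteasome subunits were expressed without treatment in both genotypes, and 0 of 3 passed (median -0.18). Psmb8, the counterpart of Psmb5, was at 4239.9, 5108 and 3478 in KO libraries and 4634, 4344 and 5426 in WT libraries (log2 fold change -0.18, SE 0.15, unadjusted p = 0.253). Psmb9, the counterpart of Psmb6, was at 989.6, 1203 and 1188 in KO libraries and 1200.5, 1086 and 1618 in WT libraries (log2 fold change -0.19, SE 0.16, unadjusted p = 0.249). Psmb10, the counterpart of Psmb7, was at 1460.0, 1985 and 1291 in KO libraries and 1710.0, 1593 and 2017 in WT libraries (log2 fold change -0.18, SE 0.16, unadjusted p = 0.281). The groups overlapped for all 3: WT replicate 3 was the highest library each time, but KO replicate 2 stood above WT replicate 2. The median of the 3 was -0.09 without WT replicate 3, -0.05 without KO replicate 3 and -0.32 without KO replicate 2. With replicate 3 of both groups left out it was 0.04, and 2 of the 3 were above WT. Exons of Psmb9 and Psmb8 overlap genes on the opposite strand, Tap1 for 5.79% of Psmb9 and Gm20496 for 14.7% of Psmb8, and no source used here says whether reads were counted by strand.

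The balance between the 2 forms of the core was set out as the ratio of each immunoproteasome transcript to its constitutive counterpart. Per kilobase of merged exons, Psmb8 over Psmb5 was 0.987 ± 0.207 in KO and 0.951 ± 0.108 in WT (SD, n = 3). By library it was 0.872, 0.863 and 1.23 in KO libraries and 0.925, 0.858 and 1.07 in WT libraries, and the highest value was that of KO replicate 3, where Psmb5 was low. Psmb9 over Psmb6 was 0.155 ± 0.0319 in KO and 0.16 ± 0.0205 in WT, and Psmb10 over Psmb7 was 1.06 ± 0.156 in KO and 1.1 ± 0.0478 in WT. Each difference between genotypes was smaller than the SD within either group. Per kilobase of principal transcript the ratios were 2.05 ± 0.43 in KO and 1.97 ± 0.224 in WT, 0.178 ± 0.0369 in KO and 0.184 ± 0.0237 in WT, and 0.469 ± 0.0689 in KO and 0.484 ± 0.0211 in WT, in the same order. Whether Psmb8 exceeds Psmb5, or Psmb10 exceeds Psmb7, thus depended on the length used. Assembly into protein was not measured.

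**Figure D4:**
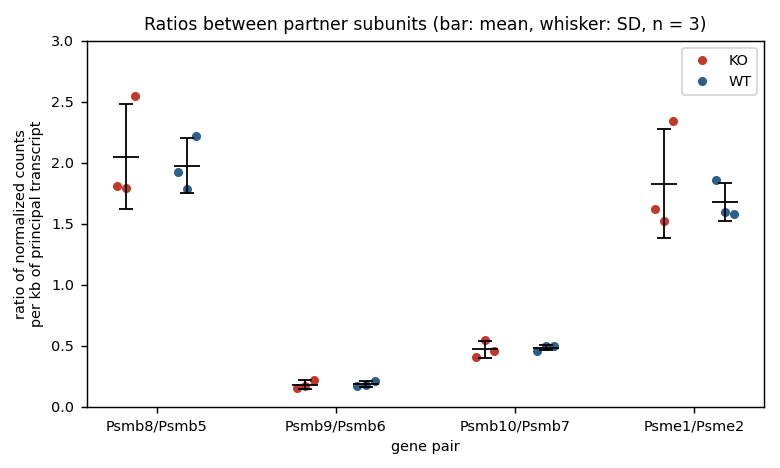
Ratio of normalized counts per kilobase of principal transcript between partner subunits, per library (points) with the mean and SD of 3 libraries per group; KO red, WT blue. KO and WT points overlap for each pair, and the KO point of Psmb8/Psmb5 farthest from its group is KO replicate 3.

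PA28 and the other activators open the gate of the core, and 0 of 6 activators and inhibitors passed (3 above and 3 below WT, median -0.04). Psme2 was at 2601, 3277 and 2418 in KO libraries and 3117, 2734 and 3924 in WT libraries and had the lowest fold change of the 48 genes (log2 fold change -0.23, SE 0.16, unadjusted p = 0.165). Psme1 was at 4880.5, 5757 and 6534 in KO libraries and 6696, 5036 and 7166 in WT libraries (log2 fold change -0.13, SE 0.15). In KO replicate 3 Psme2 was at its lowest while Psme1 was at its highest KO value. Psme2b, a copy whose transcript has 789 of 794 aligned bases (99.4%) in common with that of Psme2, was at 480.4, 482 and 849 in KO libraries and 580.1, 483 and 623 in WT libraries, highest in KO replicate 3. Reads may have been split between Psme2 and Psme2b, so both levels are uncertain. Psme3, the nuclear PA28 gamma, was at 4967 ± 280.4 in KO and 4832 ± 355 in WT. Psme4, the PA200 activator, was at 4423, 3764 and 4537 in KO libraries and 3883, 4391 and 3532 in WT libraries (log2 fold change 0.11, SE 0.12), with WT replicate 3 as its lowest library. Psmf1, an inhibitor of the core, was at 955, 979 and 658 in KO libraries and 935, 939 and 892 in WT libraries, and KO replicate 3 was below the other 5.

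Cap ATPases, which unfold substrates and thread them into the core, had 0 of 6 past the test, 4 below WT and 2 above (median -0.07). Psmc1 was at 5974, 5620.4 and 8392 in KO libraries and 6687, 5288 and 6854 in WT libraries (log2 fold change 0.07, SE 0.16). Its KO replicate 3 was above the other 5 libraries, and the fold change without it was -0.11. Psmc2 was at 4443, 4356 and 4651 in KO libraries and 4591, 4068 and 4669 in WT libraries (log2 fold change 0.02, SE 0.10), one of the most even genes of the set. Psmc6 was at 3859.6, 3578 and 3552 in KO libraries and 3848, 3511 and 4270.3 in WT libraries (log2 fold change -0.08, SE 0.11).

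Non-ATPase cap subunits bind ubiquitin chains, remove them or hold the cap together, and 0 of 11 passed, 8 below WT and 3 above (median -0.06). Psmd2, a large scaffold and the most abundant of the 48 by normalized count, was at 9651, 9547 and 9173 in KO libraries and 9879.8, 9085 and 9132 in WT libraries (log2 fold change 0.01, SE 0.10), with KO and WT libraries interleaved. Psmd1, the other large scaffold, was at 6638, 6272 and 6594 in KO libraries and 6627, 6002 and 5634 in WT libraries (log2 fold change 0.10, SE 0.10), and WT replicate 3 was its lowest library. Psmd8 was at 8402, 8719.8 and 8019.9 in KO libraries and 9538, 8391 and 10294 in WT libraries (log2 fold change -0.16, SE 0.11, unadjusted p = 0.166), the lowest fold change of the 11. Its WT replicate 2 nonetheless lay within the KO range. Psmd14, the deubiquitinating enzyme of the cap, was at 3041 ± 69.2 in KO and 3136 ± 411 in WT, and Psmd4, a ubiquitin receptor, at 3071 ± 176 in KO and 3360.3 ± 409 in WT (SD, n = 3).

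Assembly factors, the chaperones of the core (Psmg genes) and of the base of the cap (Psmd5, Psmd9 and Psmd10), had 0 of 7 past the test, 6 below WT and 1 above (median -0.08). Psmd9 was at 776, 953 and 651 in KO libraries and 892, 764 and 1024 in WT libraries (log2 fold change -0.18, SE 0.16), but 25.5% of its exon bases overlap Gm26745 on the opposite strand. Psmd5, the most abundant, was at 1400.0, 1338 and 1093 in KO libraries and 1387, 1340.2 and 1425 in WT libraries (log2 fold change -0.12, SE 0.12). Psmg3 was the 1 above WT, at 175, 241 and 207 in KO libraries and 190.1, 177 and 204 in WT libraries (log2 fold change 0.11, SE 0.17). Its highest library was KO replicate 2 and its lowest KO replicate 1, so the KO values enclosed the WT ones.

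Core subunits of single tissues were scarce. Psma8, the alpha subunit of germ cells, was at 68.8, 56.1 and 73.5 in KO libraries and 60.8, 43.7 and 73.8 in WT libraries (log2 fold change 0.17, SE 0.25). Psmb11, the catalytic subunit of the thymic cortex, did not pass the filter, with 0 reads in each KO library and 1, 1 and 0 reads in the WT libraries, too few for a fold. Psmc3ip was at 199 ± 25.6 in KO and 196 ± 39.8 in WT (SD, n = 3). The 4 Psmb pseudogenes of the table had 11 reads or fewer each over all libraries.

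Genes that act with the proteasome or control it were set beside it. Of 18 partners outside the naming rule 0 rose and 0 fell, with 7 below WT (median 0.05). Ecpas, a scaffold that holds core and cap together, was at 4780.4, 4523 and 5744 in KO libraries and 4416, 4581 and 4126 in WT libraries (log2 fold change 0.19, SE 0.12), and Pomp, the maturation factor of the core, was at 4581 ± 163 in KO and 4999.7 ± 929.3 in WT. Of 12 genes that control constitutive subunits 0 passed (median -0.04), and Nfe2l1 was at 7076 ± 275 in KO and 6881 ± 577 in WT (SD, n = 3). Mafk, with the smallest p of that list, was at 928, 1287 and 951 in KO libraries and 1193, 1599 and 999 in WT libraries (log2 fold change -0.25, SE 0.18, unadjusted p = 0.207). Of 13 genes that control the immunoproteasome 0 passed (median -0.04). Irf1, a factor that induces Psmb9, was at 1065, 1344 and 1112 in KO libraries and 1241, 1458 and 1412 in WT libraries (log2 fold change -0.23, SE 0.13, unadjusted p = 0.102). KO replicate 1 was its lowest library and WT replicate 2 its highest, and KO replicate 2 lay within the WT range.

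The medians of the interferon-stimulated genes and of the immunoproteasome genes ordered the libraries differently. Of 39 interferon-stimulated genes 0 passed and 38 were below WT (median -0.36; 51.8% of all genes tested were below), with 11 at an unadjusted p under 0.05 (1.52% of all genes). Ifit3, an antiviral protein with the smallest p of the list, was at 1123, 2002 and 2141 in KO libraries and 2301, 2552 and 3441 in WT libraries (log2 fold change -0.69, SE 0.23, unadjusted p = 0.0133), without overlap between the groups. Of 13 genes of MHC class I presentation 0 passed and 8 were below WT (median -0.14). H2-T23, a non-classical class I molecule with the smallest p of that list, was at 5067, 7483 and 5284 in KO libraries and 7310.4, 7692 and 8915 in WT libraries (log2 fold change -0.44, SE 0.15, unadjusted p = 0.0156), with KO replicate 2 inside the WT range. Tap1, the neighbour of Psmb9, was at 1783, 2419 and 1826 in KO libraries and 2157, 2315 and 2288 in WT libraries (log2 fold change -0.18, SE 0.13). The median deviation of the interferon-stimulated genes was -0.54, 0.01 and 0.04 in KO replicates 1 to 3, and -0.0035, 0.16 and 0.31 in WT replicates 1 to 3. For the 3 immunoproteasome genes it was -0.18, 0.19 and -0.36 in KO, and 0.04, -0.06 and 0.29 in WT. Both were low in KO replicate 1 and high in WT replicate 3, but in KO replicate 3 the immunoproteasome median was at its lowest and the interferon-stimulated median was near 0. The low median came from Psmb8 and Psmb10, at -0.37 and -0.36, while Psmb9 was at -0.01 there and lowest in KO replicate 1. Of the 14 other core genes, whose median was -0.22 in KO replicate 3, 10 were lowest in that library and 4, Psma3, Psma4, Psmb1 and Psmb3, in WT replicate 2. The part of interferon signalling in these values was not tested.

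**Figure D5:**
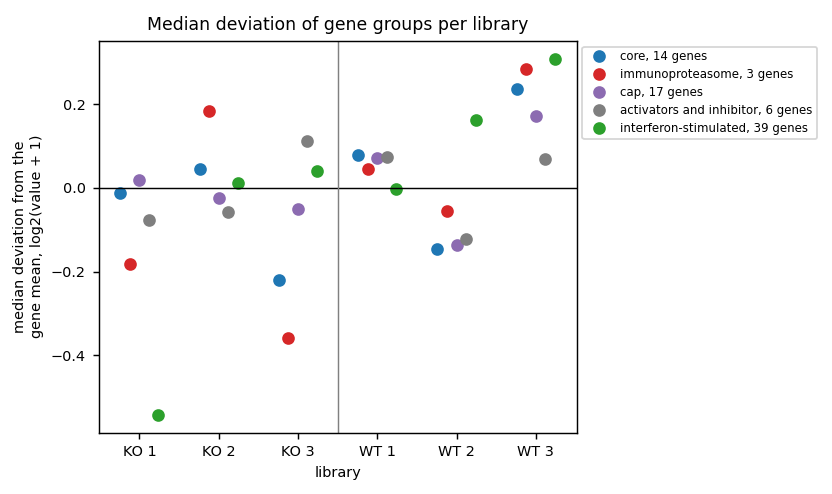
Median deviation from the gene mean, on the log2(value + 1) scale, of 4 proteasome gene groups and of 39 interferon-stimulated genes in each library. The interferon-stimulated median is lowest in KO replicate 1 (-0.54) and the immunoproteasome median in KO replicate 3 (-0.36), and all 5 medians are above 0 in WT replicate 3.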

How the data were processed

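RNA-seq of 3 SIRPa KO and 3 WT libraries was read from 1 deposited table, and the titles gave groups and replicate numbers. The submitters' processing notes name the build GRCm38 and the tools DESeq2 1.22.2, featureCounts 1.6.0, STAR 2.5.1b and CASAVA 1.4. The series' design text names a stranded kit, FastQC 0.10.1 and TopHat 2.0.10, so which aligner made the table is not known. No source used here gives the strand setting or annotation release. The deposited values are a normalized signal: the authors scaled the read counts of each library by its size factor. Of positive values, 100% were whole multiples of 1 step within 0.001, so reads were recovered. Other deposited columns are, per the file headers, p-values, a Wald statistic (a score) and the authors' log2 fold change with its standard error.

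The main test was limma 3.58.1 (R 4.3.3) with an intensity trend and no block, on log2(value + 1), a scale that shrinks fold changes at low levels, for genes with a value of at least 10 in at least 3 libraries, two-sided, adjusted by Benjamini-Hochberg over 13527 genes at 0.05. As alternatives, edgeR 4.0.16 and DESeq2 1.42.0 were fitted to the recovered reads; other pseudocounts, filters and scalings, a fit without trend, array weights, a replicate block and leaving out libraries were tried too. The fits were also run on simulated counts, drawn independently for each gene. These counts held no length or GC trend of a library, and no result here rests on them. Gene models came from GENCODE M21 and promoters from RefSeq (GRCm38.p6). Genes named by rule were the 6 catalytic subunits, Psme1, Psme2 and, in each group, the genes with the smallest p, the highest and lowest fold change and the highest level, with the gene of smallest p from other lists (up to 3 were allowed; not every list has one named). Psmb11, Psma8 and Psmc3ip complete the members; other named genes, such as Psmc2, Psme2b, Psme3, Psmf1, Psmd4, Psmd14, Pomp, Nfe2l1 and Tap1, were chosen after their values were seen. The genes, lists and tests were chosen with earlier results of these data known.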

Additional observations from a re-analysis of the deposited data

How the results depend on the processing

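The count of 0 called genes held under every alternative run except array weights, which called 9 of the 48 (18.8%, against 25.9% of all genes tested). That estimate stopped without converging, with weights of 6.61 for KO replicate 1 and 7.10 for WT replicate 1 and 0.258 to 0.543 for the others. Under it the sign changed for Psmc1 (-0.14), Psmd2 (-0.026) and Psmg3 (-0.076). TMM rescaling shifted the median of all genes to -0.03 and gave Psmd2 -0.0054, with 40 of 48 genes below WT. Without replicate 3 of either group, medians became 0.069 for core alpha, 0.057 for non-catalytic beta, 0.062 for constitutive catalytic and 0.045 for immunoproteasome subunits, 0.036 for cap ATPases, 0.023 for cap non-ATPases, -0.0085 for activators and inhibitors and 0.0052 for assembly factors. In that setting some named genes changed sign. Their log2 fold changes then were 0.11 for Psma1, 0.060 for Psma6, 0.045 for Psmb10, 0.074 for Psmb2, 0.040 for Psmb3, 0.13 for Psmb4, 0.091 for Psmb5, 0.051 for Psmb6, 0.062 for Psmb7, 0.053 for Psmb8, -0.037 for Psmc1, 0.016 for Psmc6, 0.0052 for Psmd5, 0.058 for Psmd9, 0.00019 for Psme2 and -0.017 for Psme4. Other named genes kept their sign, such as Psma4 at -0.046 and Psmb1 at -0.023. Leaving out 1 library at a time, the sign varied for some named genes. For these the fold change ranged from -0.19 to 0.055 for Psma4, from -0.29 to 0.0069 for Psmb1, from -0.28 to 0.026 for Psmb2, from -0.12 to 0.083 for Psmb3, from -0.33 to 0.044 for Psmb4, from -0.44 to 0.087 for Psmb5, from -0.11 to 0.18 for Psmc1 and from -0.0067 to 0.054 for Psmd2. Other named genes kept their sign, such as Psmd8 (-0.24 to -0.095) and Psmd1 (0.043 to 0.16). The median of the assembly factors ranged from -0.23 to 0.033. Ratios undivided by length were 3.71 in KO and 3.58 in WT for Psmb8 over Psmb5, 0.302 and 0.312 for Psmb9 over Psmb6, and 0.530 and 0.547 for Psmb10 over Psmb7; per kilobase of principal transcript they were 2.05 and 1.97, 0.178 and 0.184, and 0.469 and 0.484. The cause of these shifts was not tested.

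Whether the replicate numbers pair the libraries cannot be told from these values. Same-numbered libraries correlated at 0.0133, 0.313 and 0.133 in their deviations from the group mean, and differently numbered ones at -0.258 to 0.15. KO replicate 2 correlated best with WT replicate 2 (0.313). For KO replicate 1 the values were all near 0, at 0.0133, -0.0125 and 0.00201 with WT replicates 1 to 3. KO replicate 3 correlated best with WT replicate 1 (0.15). Deviations within a group sum to 0, so these correlations are not independent of each other. With the replicate block, 0 of 48 genes were called.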
